A study of Homo sapiens with 5 samples.

Results

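The mRNAs of the integrin subunits and laminin chains were followed through 5 RNA sequencing libraries of MCF10A, a non-tumorigenic cell line from human breast epithelium. Members were chosen by gene symbol, as the protein-coding genes named ITGA, ITGB, LAMA, LAMB or LAMC with a subunit number or letter. Described here are 37 of the 56632 genes listed, 26 of them integrins and 11 laminins. Of these, 20 averaged 1 FPKM or more across the 5 libraries, the filter used for every fold here, and they were 14 integrins and 6 laminins. FPKM is the number of fragments per kilobase of transcript, scaled to the fragments of the library. It was set by the authors and can be compared between genes.

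In RNA immunoprecipitation (RIP) an antibody captures a protein from lysed cells and the RNA bound along with it is sequenced. The input is RNA from the same kind of cells with no antibody step. The question was which transcripts come down with CBFB, a transcription factor subunit without a DNA-binding domain of its own, and with hnRNPK, an RNA-binding protein that favours C-rich RNA. All cells were MCF10A, untreated and grown with horse serum, insulin, EGF, hydrocortisone and cholera toxin. The first group was 1 input library of MCF10A cells expressing FLAG-CBFB, and the second was 1 RIP from those cells with FLAG antibody. The third was 1 input of MCF10A with no transgene named, called parental here, and the fourth was 2 RIP repeats from MCF10A with hnRNPK antibody. The labels do not say whether the FLAG-CBFB cells kept their own CBFB gene, nor whether the line was 1 clone. Nothing says that the hnRNPK repeats came from separate cultures, so their spread may be technical, and both share 1 input. No RIP with a control antibody was analysed here.

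Integrins are receptors made of an α and a β chain that span the cell membrane and tie the cytoskeleton to the extracellular matrix. Laminins are cross-shaped secreted trimers of an α, a β and a γ chain, and they are main components of the basement membrane under an epithelium. Breast epithelial cells bind laminin mainly through the integrin α chains ITGA3 and ITGA6 paired with ITGB1, and ITGA6 paired with ITGB4 anchors them in hemidesmosomes.

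Because hnRNPK favours runs of C, the most C-rich stretch of 30 bases was taken from the longest protein-coding transcript listed for each expressed member. The 6 shown belong to the 4 members that the hnRNPK test called, and to ITGB1 and ITGB4, the most abundant integrin mRNAs. They are mRNA-sense sequences of GENCODE release 29 transcripts on GRCh38, written with T, and capitals mark runs of 3 or more C. ITGA3 (3′ UTR in exon 26, chr17:50089276-50089305, plus strand), ITGA2 (3′ UTR in exon 30, chr5:53091621-53091650, plus strand), LAMB3 (coding sequence in exon 7, chr1:209632702-209632731, minus strand) and LAMB1 (coding sequence in exon 1, chr7:108001805-108001834, minus strand) are followed by ITGB4 (5′ UTR in exon 1, chr17:75721451-75721480, plus strand) and ITGB1 (5′ UTR in exon 1, chr10:32957780-32957809, minus strand).
ITGA3: gatCCCaCCCCCtcctCCCCCagtgtCCCC
ITGA2: CCCCtcctttaCCCCtcatccaaagttCCC
LAMB3: CCCCtgtgCCCCaaaggggctaccaCCCtc
LAMB1: tcctctctccgcaCCCactCCCCCgCCCCC
ITGB4: tCCCCaCCCCCCCaaCCCCCgcgCCCgCCC
ITGB1: CCCgaacggCCCCtgacacctgcggtctcc
Of these 30 bases, 22 lay in such runs in ITGB4, 17 in ITGA3, 13 in LAMB1, 11 in ITGA2 and in LAMB3, and 7 in ITGB1. The ITGB4 and ITGA3 stretches were the richest in C runs of the 20.

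The libraries held between 69786576 and 106855647 expected counts. Transcripts of the mitochondrial genome made up 4.27% and 11.2% of input counts, against 62.2% after FLAG pulldown and 84.5% and 86.6% after hnRNPK pulldown. The 37 integrins and laminins together made up 0.769% of the counts before FLAG pulldown and 0.141% after it. In parental cells they took 0.454%, against 0.0437% and 0.0297% after hnRNPK pulldown. With mitochondrial transcripts left out, the shares were 0.804% and 0.373% for CBFB, and 0.511%, 0.282% and 0.221% for hnRNPK, so the members' share of the other counts was also lower in each RIP. Epithelial cell markers were present, with 9 of 9 markers past the filter, among them KRT5 at 1974 and 1640 FPKM in the inputs. No endothelial or fibroblast marker passed it, though the endothelial gene PECAM1 was not found by name and so has no value. Of 5 leukocyte markers, the pan-leukocyte gene PTPRC was at 0.01 FPKM or less in every library while CD14 and CD68 passed.

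In the cells themselves, ITGB4 was the most abundant member in both inputs, and other chains of hemidesmosomes were among the abundant ones. ITGB4, the β chain of the hemidesmosome integrin, had an FPKM of 413 in the FLAG-CBFB cell input and 369.6 in the parental input. ITGB1, the β chain that pairs with most α chains, had 392 and 188. ITGA3 had 161 and 185. ITGA6, the α partner of ITGB4, followed with 110.2 and 60.2. The laminin chains LAMA3 (175 and 225) and LAMB3 (140.4 and 83.8), both part of the laminin of hemidesmosomes, were in this range. So was LAMB1 (187 and 151), a β chain of more widely made laminins. LAMA5 (66.8 and 104.5) and LAMB2 (85.5 and 88.0) were above LAMB3 and ITGA6 in the parental input, though below both in the other.

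The other 17 genes were weak or silent. LAMA1 reached 1.99 FPKM, ITGB2 2.96 and ITGB7 1.30 in 1 input each, but their means over the 5 libraries were below 1. The highest value of any other was 0.61, for LAMA2 in the parental input. ITGA8 and ITGAD were listed at 0 in all 5 libraries, and the leukocyte chain ITGAL and the platelet β chain ITGB3 did not exceed 0.01. The number of members with an FPKM of at least 1 was 21 and 22 in the inputs, 17 with CBFB and 15 with hnRNPK in either repeat.

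The inputs differed for some members, which matters because each RIP was set against its own. ITGA2, the α chain of a collagen receptor, had 53.6 FPKM in the FLAG-CBFB cell input and 11.9 in the parental input, a ratio of 4.51. It was the only member above 4-fold on the centred log2(FPKM + 1) scale, at 2.11, where 0.519% of the 11764 analysed genes were. ITGB6, the β chain of an epithelial receptor for RGD ligands, had a ratio of 2.45, ITGAV 2.41, ITGB8 2.28 and ITGB1 2.09. ITGAE, the α partner of ITGB7, was lower in the FLAG-CBFB cell input, with a ratio of 0.46. In all, 13 of the 20 were higher there on that scale, including all 5 β chains, as were 5933 of the 11764 analysed genes. With 1 input per cell line no test was possible, a difference between cell lines cannot be told apart from one between 2 libraries, and in bulk RNA fewer cells of a type cannot be told apart from less RNA per cell.

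**Figure D1:**
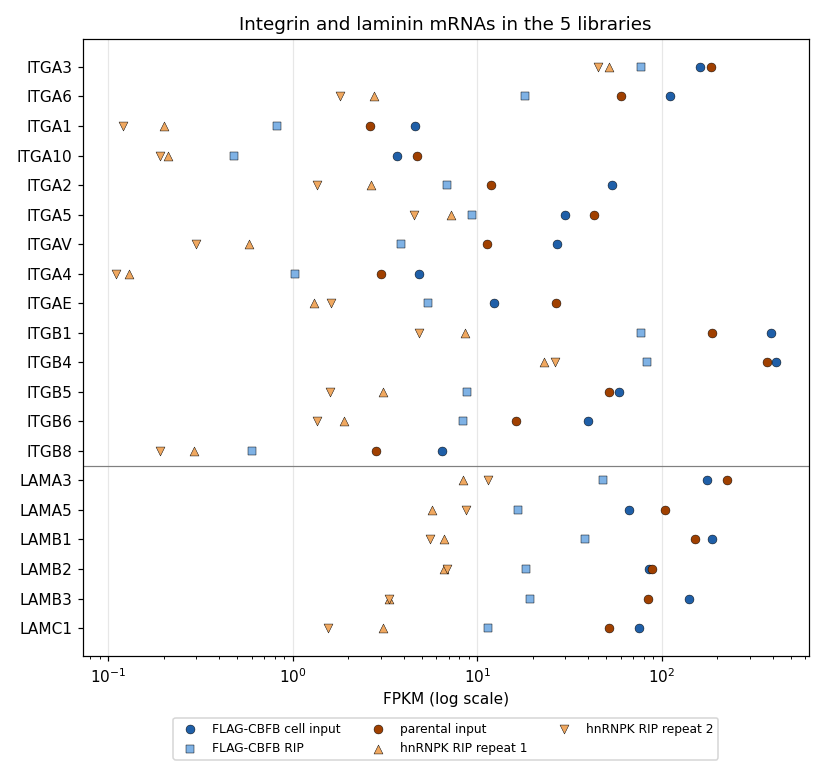
FPKM on a log axis of the 20 expressed integrin (upper) and laminin (lower) mRNAs in each of the 5 libraries, 1 point per library. For every gene both inputs lie to the right of the RIPs made from the same cells, and ITGA3 has the highest FPKM in both hnRNPK RIPs, at 51.6 and 44.9.

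No integrin or laminin mRNA passed 4-fold enrichment in the FLAG-CBFB RIP. All 20 had a lower FPKM in the RIP than in its input, as 92.7% of analysed genes did. Each is given below as the RIP FPKM in percent of the input FPKM, which was 28.6% for the median analysed gene and 19.8% for the median member. It lay below the median gene for 17 of the 20, among them all 6 laminins and all 5 β chains. These positions rest on the 1 FLAG-CBFB cell input, and several members, β chains among them, shifted against the parental input, as given below. By counts, an alternative added after seeing the data, a gene's share of the non-mitochondrial counts in the RIP was set against that in the input. It was 72.8% for the median gene and 42.8% for the median member, and 17 of the 20 were again below the median gene. None exceeded 4-fold on the centred log2(FPKM + 1) scale, where 4.37% of all genes did, and none was below -2, where 0.0935% were. The study also calls more than 4-fold, but on an adjusted FPKM whose adjustment it does not describe. It called a larger share of its transcripts for CBFB, so its calls need not match these. Each value is from 1 RIP and 1 input, so there is no replicate check and no p-value.

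Among the laminin α chains, LAMA3 went from 175 FPKM in the input to 48.2 in the FLAG-CBFB RIP, or 27.6%. LAMA5, the α chain of most other epithelial laminins, went from 66.8 to 16.7, or 25.0%. These were the laminins nearest to the median gene.
The β chains LAMB1 and LAMB2 went from 187 to 38.6 and from 85.5 to 18.3, which left 20.6% and 21.5%. LAMB3, the β chain of the hemidesmosome laminin, went from 140.4 to 19.4 and kept 13.8%, the lowest of the laminins by FPKM. LAMC1, a γ chain of many laminins, went from 75.3 to 11.5 and kept 15.3%. By counts LAMB3 (35.9%) and LAMB1 (35.8%) did not differ beyond counting error, and LAMA3 (44.3%) was less far above LAMB3 than by FPKM. The effective length of LAMA3, the length that FPKM divides by, was 4150.5 nt in this input and 2638 nt in its RIP.

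ITGA3 kept the largest share of FPKM of any member, from 161 FPKM in the input to 77.0 in the FLAG-CBFB RIP, or 47.8%, and 85.0% of analysed genes kept less. ITGA6, the other laminin-binding α chain expressed, went from 110.2 to 18.2 and kept 16.5%. With this input the laminin receptors were thus split, with ITGA3 above the median gene and ITGA6 below it.
The collagen-binding chains kept little, with ITGA2 going from 53.6 to 6.85 (12.8%), ITGA1 from 4.60 to 0.82 (17.8%) and ITGA10 from 3.66 to 0.48 (13.1%). The fibronectin-receptor chain ITGA5 went from 29.8 to 9.39 (31.5%), and ITGAV, which binds RGD ligands with several β chains, from 27.1 to 3.85 (14.2%). ITGA5 was thus slightly above the median gene. ITGA4, a chain known mainly from leukocytes, went from 4.81 to 1.03 (21.4%), and ITGAE from 12.3 to 5.41 (44.0%). ITGAE was the third and last member above the median gene. The order of ITGA3 and ITGAE depended on the scale, since by counts ITGAE kept 114% and ITGA3 97.3%, and on the centred log2(FPKM + 1) scale they stood at 0.29 and 0.28.

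By FPKM the β chains lay between 15.0% and 21.0%, except for ITGB8. ITGB1 went from 392 to 76.7 FPKM (19.6%), ITGB4 from 413 to 82.7 (20.0%) and ITGB6 from 39.65 to 8.34 (21.0%). ITGB5, a partner of ITGAV, went from 58.3 to 8.75 (15.0%). ITGB8, another ITGAV partner, went from 6.43 to 0.60 and kept 9.33%, the lowest of the 20, and 0.604% of analysed genes kept less. By counts ITGB8 was again the lowest, at 23.5%, but ITGB4 (36.2%) was then below ITGB1 (52.2%), ITGB5 (52.5%) and ITGB6 (54.0%). The effective length of ITGB5 was 2212 nt in the input and 3059.5 nt in the RIP, and that of ITGB4 was 3478 and 2489 nt.

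Counting error was small beside these differences. The 95% counting interval of the log2 ratio of expected counts was ±0.023 for ITGA3, ±0.020 for ITGB1 and ±0.022 for ITGB4 and reached ±0.25 for ITGA10, the member with the fewest reads in the FLAG-CBFB RIP. It covers counting error only, and no spread between RIPs or cultures and no error in assigning reads to genes. The choice of input mattered more. Set against the parental input, the FLAG-CBFB RIP held 57.6% of the FPKM of ITGA2, 51.6% of ITGB6 and 40.9% of ITGB1, against 12.8%, 21.0% and 19.6% of the FPKM in their own input. ITGA3 was at 41.7% against 47.8%.

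**Figure D2:**
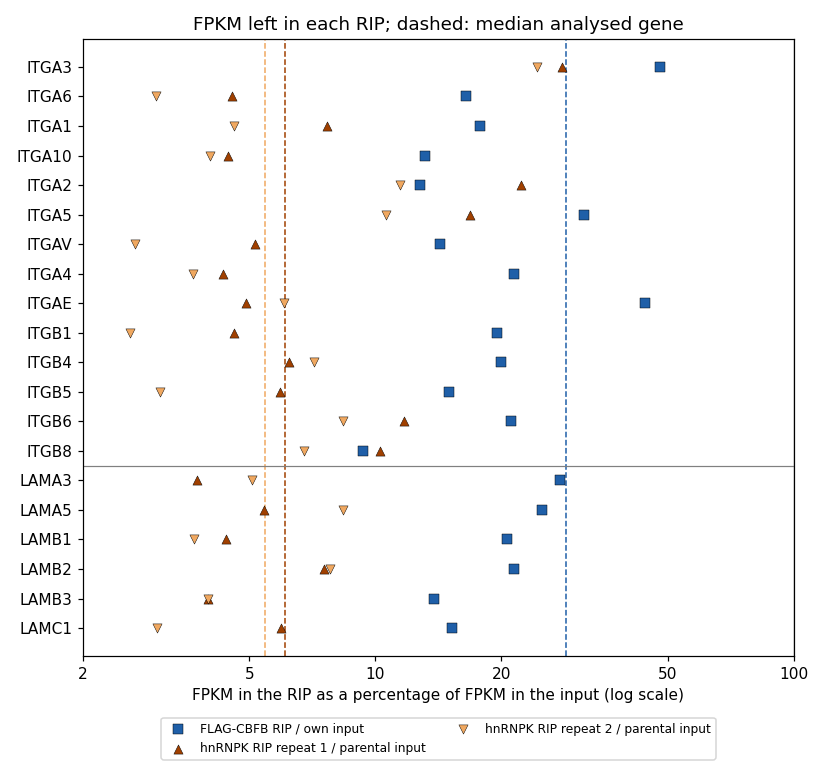
RIP FPKM as a percentage of input FPKM (log axis) for the 20 expressed members, with 1 point per RIP library and a dashed line for the median of all analysed genes in the same comparison (28.6% for CBFB, 6.08% and 5.45% for the hnRNPK repeats). For CBFB, 17 members lie left of the line, and for hnRNPK they lie on both sides, with ITGA3 farthest to the right.

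In the hnRNPK RIPs most integrin and laminin mRNAs did not differ from the parental input by the test used, and those that did went both ways. By edgeR's quasi-likelihood test with Benjamini-Hochberg adjustment on the expected counts, ITGA3 and ITGA2 were higher in the RIPs relative to the bulk of genes, and LAMB3 and LAMB1 were lower. The remaining 16 had an adjusted p of 0.05 or more. Over all 11764 genes tested, 24.6% were higher and 14.3% lower, so 2 of 20 in each direction was less than the background in the first case and near it in the second. No member exceeded 4-fold enrichment on the centred log2(FPKM + 1) scale, where 8.2% of genes did. The test compares 2 RIP libraries with 1 input and takes its spread from the RIP repeats alone.

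ITGA3 measured 185 FPKM in parental cells and 51.6 and 44.9 in the hnRNPK RIP repeats, that is 27.9% and 24.3%, against 6.08% and 5.45% for the median gene. Its log2 fold change was 2.14 ± 0.35 (SE, n = 2 RIPs and 1 input), with an adjusted p of 7.0e-05 in edgeR's quasi-likelihood test. Both repeats lay above the median gene. On log2 CPM of the counts, scaled by TMM factors and not centred, ITGA3 was at 2.01 and passed 4-fold, as it did in 2 further settings. On centred log2(FPKM + 1) it was at 0.72 ± 0.09 (SD, n = 2).

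ITGA2 had 11.9 FPKM in parental cells and 2.65 and 1.36 in the repeats, or 22.3% and 11.4%. Its log2 fold change was 1.55 ± 0.40 (SE) with an adjusted p of 0.0047 in the same edgeR test. Both repeats were above the median gene, repeat 1 being the higher. This call rests on the 1 parental input. Against the FLAG-CBFB cell input, in which ITGA2 was 4.51 times as high, the repeats held 4.94% and 2.54% of its FPKM, below the median gene in that comparison (5.97% and 5.62%). On the centred log2(FPKM + 1) scale the value then turned from 0.51 to -1.61. For ITGA3 the same exchange gave 32.04% and 27.9%.

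LAMB3 had 83.8 FPKM in parental cells and 3.33 and 3.34 in the repeats, or 3.98% and 3.99%. Its log2 fold change was -1.15 ± 0.32 (SE), adjusted p = 0.0085 in edgeR's quasi-likelihood test. The repeats were nearly equal and both were below the median gene. LAMB1 had 151 FPKM and then 6.63 and 5.57, or 4.39% and 3.68%, with a log2 fold change of -0.87 ± 0.32 (SE) and an adjusted p of 0.041 in that test. The LAMB1 call was lost in 3 of the other settings, with adjusted p of 0.103 in DESeq2, 0.0571 with DESeq2 size factors in edgeR and 0.0902 with a stricter expression filter.

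None of the other laminin chains passed the test. LAMA3 had 225 FPKM in parental cells and 8.41 and 11.4 in the repeats (3.74% and 5.06%), with a log2 fold change of -0.59 ± 0.32 (SE). LAMA5 had 104 and then 5.67 and 8.74 (5.43% and 8.37%), and LAMB2 had 88.0 and then 6.63 and 6.87 (7.53% and 7.80%). LAMB2 was above the median gene in both repeats, while LAMA5 lay on either side of it. LAMC1 had 51.6 and then 3.07 and 1.55 (5.95% and 3.01%). The repeats of LAMC1 spanned values of both LAMA3 and LAMA5, so it could not be ordered against them.

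Of the α chains, ITGA5 came nearest to a call after ITGA3 and ITGA2. It had 42.7 FPKM in parental cells and 7.20 and 4.52 in the repeats (16.8% and 10.6%), with a log2 fold change of 0.84 ± 0.35 (SE) and an adjusted p of 0.067 in edgeR. ITGA6 had 60.2 and then 2.74 and 1.80 (4.55% and 2.99%), with a log2 fold change of -0.73 ± 0.33 (SE) and an adjusted p of 0.086 in edgeR. The laminin-binding chains ITGA3 and ITGA6 thus stood on opposite sides of the median gene in both hnRNPK repeats. They also did so in the FLAG-CBFB RIP set against its own input. Against the parental input that RIP held 41.7% and 30.2% of their FPKM, a smaller gap.
ITGAV had 11.2 FPKM and then 0.58 and 0.30 (5.16% and 2.67%), and ITGAE 26.7 and then 1.31 and 1.62 (4.90% and 6.06%). The weakly expressed chains ITGA1, ITGA4 and ITGA10 had 2.61, 3.0 and 4.73 FPKM in the parental input and between 0.11 and 0.21 in the repeats. None of these 5 passed the test.

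The β chains did not pass the test either. ITGB1 had 188 FPKM in parental cells and 8.61 and 4.86 in the repeats (4.59% and 2.59%), with a log2 fold change of -0.82 ± 0.33 (SE) and an adjusted p of 0.057 in edgeR. On centred log2(FPKM + 1) it was the only member below -2, at -2.01 ± 0.46 (SD, n = 2), where 6.24% of genes were. Repeat 1 was at -1.69 and repeat 2 at -2.33, and on this scale the pseudocount keeps weakly expressed members from reaching -2. By FPKM kept relative to the median gene, with no pseudocount, the ITGB1 repeats were only at -0.41 and -1.07 (log2). ITGB4 had 369.6 and then 23.0 and 26.3 (6.22% and 7.12%), with a log2 fold change of 0.13 ± 0.34 (SE). The hemidesmosome chain was thus close to the median gene. Whether the ITGB4 transcripts counted here hold the C-rich stretch printed above was not tested.
ITGB5 had 52.1 FPKM and then 3.08 and 1.59 (5.92% and 3.05%). ITGB6 had 16.2 and then 1.89 and 1.35 (11.7% and 8.35%), and ITGB8 2.82 and then 0.29 and 0.19 (10.3% and 6.74%). ITGB6 and ITGB8 were above the median gene in both repeats, with adjusted p of 0.10 and 0.50 in edgeR.

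**Figure D3:**
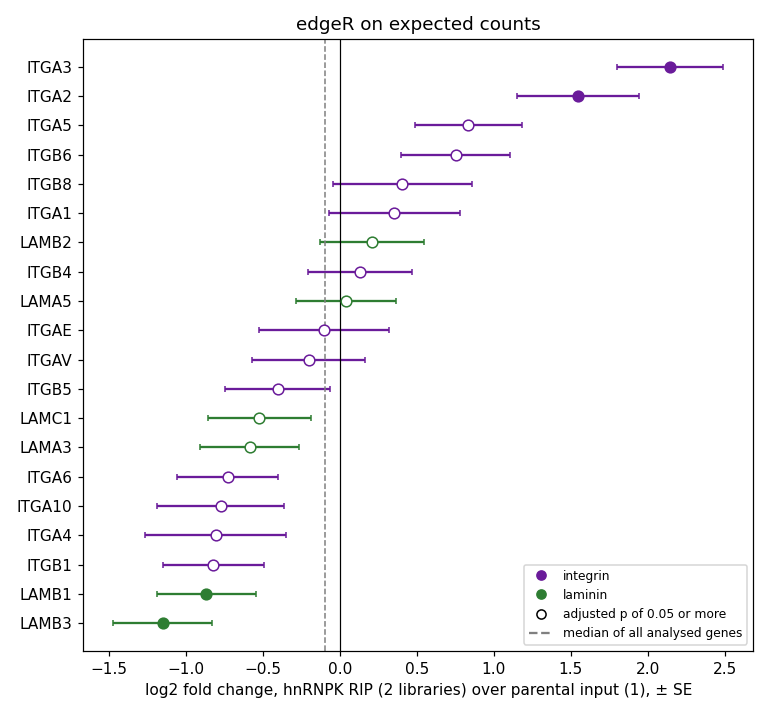
edgeR log2 fold change of the 2 hnRNPK RIP libraries over the 1 parental input for the 20 expressed members, with bars of ± SE. Filled points (ITGA3 and ITGA2 on the right, LAMB1 and LAMB3 on the left) have an adjusted p under 0.05, and the dashed line at -0.10 is the median of all analysed genes.

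FPKM and counts did not always move together, because the average length of the transcripts assigned to a gene changed between libraries. For LAMA3 the effective length was 2039.8 nt in the parental input and 2804 and 1384 nt in the hnRNPK RIP repeats. For ITGB4 it was 1889 nt and then 2746 and 1358 nt, so repeat 1 and repeat 2 fell on either side of the input in both genes. For ITGA3 it was 2788, 3329 and 2688 nt. Per length, LAMA3 was higher in repeat 2, while by counts it was higher in repeat 1, at 2429 against 1425. Some members also overlap other genes, and the labels do not say whether strand was used in counting. ITGA1 shares 571 nt of exon with AC022133.1 and 475 nt with PELO on the same strand, ITGB6 shares 966 nt with AC092153.1 on the same strand, and ITGAE shares 427 nt with HASPIN and LAMA5 244 nt with ADRM1 on the opposite strand. Of the genes called by edgeR, ITGA3 and ITGA2 had no such overlap, LAMB3 shares 6 nt with MIR4260 on the same strand, and LAMB1 shares 221 nt with AC005046.1 and 70 nt with DLD on the opposite strand. Values of the overlapping genes are uncertain.

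Genes that work with integrins and laminins were examined in the same way. Lists of 44 partners, of which 39 passed the filter, covered hemidesmosome and laminin-binding proteins, basement membrane components, focal adhesion adaptors and integrin signalling kinases. Of the 39, 4 exceeded 4-fold for CBFB and 7 for hnRNPK, where 4.37% and 8.2% of all genes did. By edgeR 17 of the 39 were higher and 5 lower in the hnRNPK RIPs, beside 24.6% and 14.3% of all genes and 2 and 2 of the 20 integrins and laminins. The lists were chosen with earlier results of these data known, and the difference between them and the members was not tested.

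Among focal adhesion adaptors, which link the integrin tails to actin, 8 of 18 were higher and 2 lower in hnRNPK RIP by edgeR, against 24.6% and 14.3% over all genes. ZYX (zyxin) was the highest partner in the FLAG-CBFB RIP, with 106.6 FPKM in the input and 1151 in the RIP, or 1079.7%. In the hnRNPK repeats it went from 114 FPKM in the parental input to 515 and 369, with a log2 fold change of 5.94 ± 0.42 (SE) and an adjusted p of 9.4e-09 in edgeR. It was above its input in every RIP. TLN1 (talin), which binds the β tail, had 47.5 FPKM in the FLAG-CBFB cell input and 100.1 in its RIP, and 68.7 in the parental input against 52.4 and 95.3. PXN (paxillin) had 79.3 and 136.9, and 108.0 against 96.1 and 81.5. ZYX, TLN1 and PXN were the adaptors above 4-fold for CBFB, and with TNS4 (254.7 FPKM in the parental input, 296 and 270.2 in the repeats) they were those above 4-fold for hnRNPK. The lower ones were FLNA and ACTN1, actin cross-linkers with log2 fold changes of -0.96 and -0.92. ACTN4, a close relative of ACTN1, kept 12.7% of its FPKM in the FLAG-CBFB RIP, where ACTN1 kept 19.2%. By counts they kept 49.8% and 49.1%, so the gap was seen in FPKM only.

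Of 8 hemidesmosome and laminin-binding partners, 4 were higher and 2 lower in hnRNPK RIP by edgeR, again against 24.6% and 14.3% over all genes. BCAM, a laminin receptor that is no integrin, was the highest of all partners for hnRNPK, with 6.55 FPKM in parental cells and 35.8 and 35.4 in the repeats (log2 fold change 6.42 ± 0.45, SE, adjusted p = 8.2e-09 in edgeR). In the FLAG-CBFB RIP it had 84.7 against 18.4 in the input. SDC4 (syndecan-4), a coreceptor in cell adhesion, had 59.4 FPKM and then 54.0 and 29.8, and passed 4-fold for hnRNPK but kept 38.0% in the FLAG-CBFB RIP. The others higher by edgeR were DAG1 (dystroglycan, 2.20) and CD151 (0.93), a tetraspanin that binds ITGA3 and ITGA6 dimers. COL17A1 and DST, both hemidesmosome components, were lower, with log2 fold changes of -1.03 and -1.13. Names and values of these edgeR calls, beyond the genes past 4-fold and the extremes, were chosen after their values were seen.

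None of the 6 basement membrane partners analysed was higher by edgeR, and COL4A2, a collagen IV chain, was lower at -1.25 ± 0.35 (SE), the lowest edgeR fold change of the partners. Of 7 kinases 5 were higher and none lower, where 24.6% and 14.3% of all genes were. CSK, which inhibits SRC family kinases, had 36.65 FPKM in parental cells and 40.6 and 32.4 in the repeats and passed 4-fold, and SRC had 19.3 and then 12.4 and 10.1. The other 3 were FYN (2.03), LYN (1.74) and PTK2B (0.91), while PTK2, the focal adhesion kinase, did not pass, with 41.7 FPKM and then 3.34 and 2.23. For scale, RUNX1, the transcript the study began with, kept 178% of its FPKM with CBFB and 166% and 117% with hnRNPK, and GAPDH kept 34.8%, 2.58% and 2.35%.

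**Figure D4:**
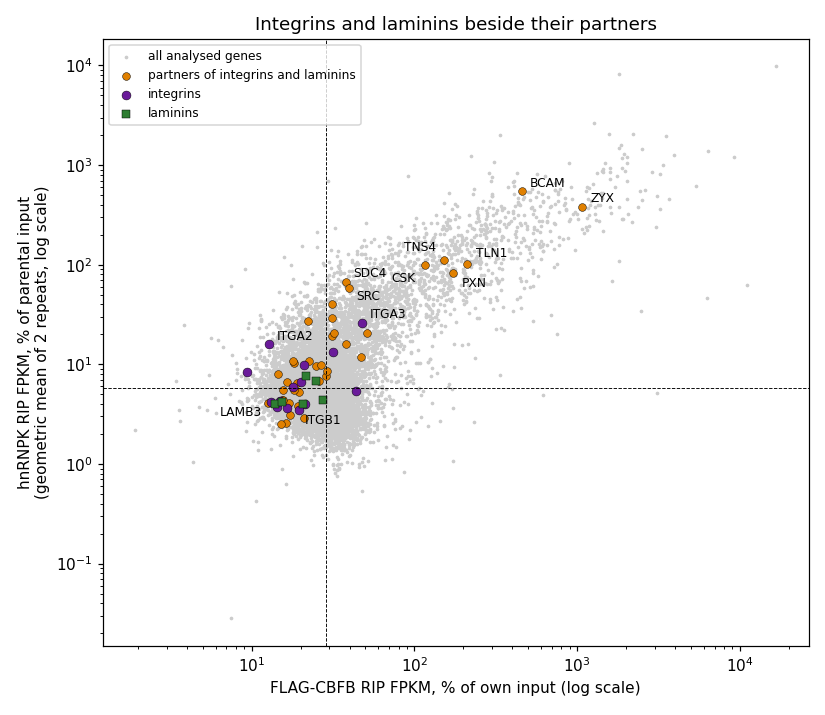
RIP FPKM in percent of input FPKM for FLAG-CBFB (1 library, x axis) and hnRNPK (geometric mean of 2 repeats, y axis), both on log axes, with 1 point per gene and dashed lines at the median analysed gene. Genes at 0 in a library used are not drawn. Integrins and laminins lie in the main cloud of genes, while ZYX, BCAM, TLN1, PXN, TNS4 and CSK lie towards the upper right.

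By the longest protein-coding transcript listed for each gene, the members were long but not rich in C runs. The median of these GENCODE transcripts was 5646 nt for the 20, against 3327 nt for all analysed protein-coding genes of the nucleus. They held 4.39 runs of CCCC per kilobase at the median, against 4.49. The motifs searched, on the mRNA strand only and counting overlapping matches, were CCCC and UCCC (TCCC as written above), and 98.4% and 99.6% of the 10493 transcripts held at least 1. These motifs overlap each other in runs such as UCCCC.
Per kilobase, ITGA5 held 14.9 CCCC, LAMA5 14.3, ITGA3 13.9 and ITGB4 10.1, the highest of the members. ITGB1 held 0.79, ITGB6 1.07 and ITGA2 2.16. ITGA3 was thus among the richest members and ITGA2 among the poorest, while both were higher in the hnRNPK RIPs.
Across the 10493 genes, the Spearman correlation with the edgeR log2 fold change was 0.34 for CCCC per kilobase, 0.37 for UCCC and 0.29 for transcript length. Across the 20 members it was 0.14, -0.16 and 0.29. With the share of FPKM kept in the FLAG-CBFB RIP it was 0.47 for CCCC, 0.52 for GC content and -0.19 for transcript length across the members. Across the genes with a value it was 0.21, 0.19 and -0.45, so longer transcripts kept less of their FPKM over all genes. All genes share the same libraries and differ in length and base composition, so these values describe the genes and are given with no test. A match says only that the letters are in the transcript, and the 1 longest transcript stands for each gene. It had 5674 nt for LAMB2 and 3858 nt for ITGAE, with effective lengths in the libraries of 981 to 1763 and 530 to 632 nt. For ITGA2 they were closer, at 7869 nt against 6845 to 7701 nt. The transcripts counted may thus lack some of these features.

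**Figure D5:**
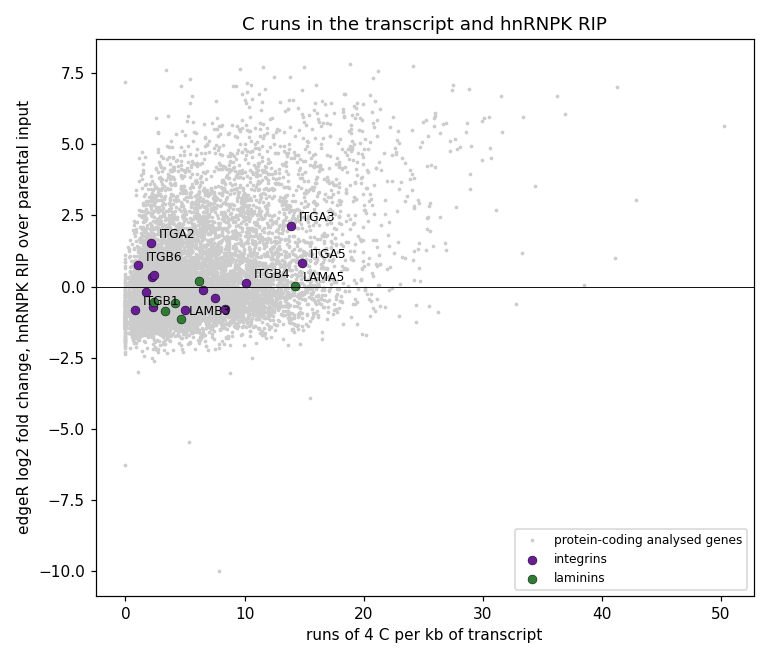
Runs of CCCC per kilobase of transcript against the edgeR log2 fold change of hnRNPK RIP over parental input, with 1 point per protein-coding analysed gene. ITGA3, ITGA5, LAMA5 and ITGB4 lie to the right at 10.1 or more per kilobase, with fold changes from 0.04 to 2.14, and ITGA2 at 2.16 per kilobase has 1.55.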

How the data were processed

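RNA from 2 inputs and 3 RIPs of MCF10A cells was isolated with Trizol and sequenced after TruSeq mRNA preparation, per the labels. The submitters' processing notes name Trimmomatic, STAR, RSEM and hg19, without versions, and the annotation release is not given in the sources used here. The expected counts deposited are estimates by RSEM, which splits a read that matches several genes. The FPKM values deposited by the authors scale those counts to effective transcript length and to the library total, so the large mitochondrial share of the RIPs lowers the FPKM of all other genes. Groups were taken from the sample titles.

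Genes were named through a table of Ensembl identifiers, which matched 50276 of 56632. Analysis covered the 11764 genes that averaged 1 FPKM or more. Enrichment was the difference in log2(FPKM + 1) between a RIP and its input, centred on the mean over those genes. The pseudocount of 1 understates the fall of weak genes, and after centring a gene at 0 FPKM throughout stands at 1.34 for CBFB and at about 2.64 for hnRNPK, so the percentage of FPKM kept is given first. Expected counts rounded to whole numbers were tested with the quasi-likelihood test of edgeR 4.0.16 (R 4.3.3, TMM factors), 2 hnRNPK RIPs against 1 parental input, two-sided, Benjamini-Hochberg over all genes tested, at an adjusted p under 0.05. The script was tested on simulated counts. The p-values measure only the spread between the RIP repeats. CBFB had 1 library per arm and no test. Some genes are not reported here and are left out of member and list counts, but they stay in all fits and in the counts over all genes. Every other expressed member was named, and of the partner lists the extremes and those past 4-fold. Members, lists and tests were chosen with earlier results of these data known. Sequences, coordinates and transcript features are those of GENCODE 29 on GRCh38, since the tables hold no coordinates. Alternatives included pseudocounts, centring, filters, the opposite input, log2 CPM (prior count 2), DESeq2 1.42.0 and leaving out each repeat. Values relative to the median gene with no pseudocount were added after seeing the data.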

Additional observations from a re-analysis of the deposited data

Results flagged for a closer look

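For 6 members the FLAG-CBFB RIP and both hnRNPK RIP repeats moved in opposite directions on the centred log2(FPKM + 1) scale. The difference between the proteins was not tested, since CBFB had 1 library per arm and the inputs came from different cells. CBFB enrichment minus mean hnRNPK enrichment was -1.97 for ITGA2, -1.90 for ITGB8, -1.29 for ITGA1, -0.98 for ITGA4 and -0.70 for ITGA10, which were all below 0 for CBFB and above 0 for both hnRNPK repeats. It was 1.14 for ITGAE, which was above 0 for CBFB and below 0 for hnRNPK. By the share of FPKM kept relative to the median gene, with no pseudocount, mean hnRNPK values were 1.46 for ITGA2, 0.52 for ITGB8 and 0.04 for ITGA1, but -0.54 for ITGA4, -0.45 for ITGA10 and -0.09 for ITGAE. CBFB values in the same order were -1.16, -1.62, -0.68, -0.42, -1.12 and 0.62. ITGA4 and ITGA10 were thus below the median gene for both proteins by that measure. With the opposite input the order turned for 5 of the 6, with CBFB and mean hnRNPK values of 0.65 and -1.61 for ITGA2, 0.12 and 0.03 for ITGB8, 0.38 and 0.34 for ITGA1, 0.39 and 0.24 for ITGA4 and -0.74 and 0.18 for ITGAE. The order held for ITGA10 on the centred log2(FPKM + 1) scale, at -0.58 and 0.66. By FPKM kept, the hnRNPK repeats held 5.74% and 5.19% of ITGA10 in the opposite input. Both were below the median gene in that comparison (5.97% and 5.62%), so the opposite directions of ITGA10 were not seen by FPKM kept.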

How the results depend on the processing

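No paired analysis was possible because inputs carry no replicate number that hnRNPK repeats could be matched to. The count of members above 4-fold for CBFB was 0 in all 11 alternatives. For hnRNPK it was 0, and 2 with a 2-fold threshold, 1 on log2 CPM with TMM factors, 1 with DESeq2 size factors and 1 relative to the median gene with no pseudocount. Without either repeat it was 0. Members higher in hnRNPK RIP by edgeR numbered 2 of 20, 3 of 20 with DESeq2 size factors (with ITGA5, adjusted p = 0.0451), and 4 of 16 under the stricter filter, a mean FPKM of 5 or more (with ITGA5 and ITGB6). Members lower numbered 2, and 1 in DESeq2, 1 with DESeq2 size factors, 1 under the stricter filter and 8 with no filter. With no filter the median of the analysed genes moved from -0.10 to -0.50, and LAMA5 turned to -0.37, ITGB4 to -0.27, LAMB2 to -0.19 and ITGA1 to -0.050. Under the stricter filter ITGAE turned to 0.047. None of these sign changes belonged to a called gene. Leaving out 1 repeat gave values with no test, 1 library against 1, from -0.30 to 0.083 for ITGAE, -0.22 to 0.42 for ITGB4, -0.029 to 0.10 for LAMA5 and -0.65 to 0.13 for ITGAV. ITGA3, ITGA2 and LAMB3 kept their direction and an adjusted p under 0.05 in DESeq2 and in every edgeR setting. Over all genes, 1677 were lower by edgeR, 846 by DESeq2 and 3443 with no filter. The median CBFB enrichment of the members ran from -2.19 with no centring to -0.53 with no pseudocount, and the median hnRNPK enrichment from -3.51 to -0.14 with DESeq2 size factors. Depth limited the weak members, as ITGA4 had 52 and 34 expected counts in the hnRNPK RIPs, while the lack of a second input and of a CBFB repeat limited all of them. The cause of these changes was not tested.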
